A study of Mus musculus with 9 samples.

Results

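Constitutive distal sites inside genes were regions of open chromatin that stood away from every annotated start of transcription, lay within a protein-coding gene and were called in all 4 ATAC-seq peak lists of the study. They were chosen on the calls themselves: the peaks of the 4 lists were merged on chromosomes 1 to 19, a merged site had to hold at least 1 peak of each list, it had to keep clear of the 1 kb on either side of any annotated transcription start site (TSS), and its midpoint had to fall in the body of a protein-coding gene of GENCODE M21. This gave 19904 sites of 125387 merged sites, or 15.9%. They made up 34.6% of the 57522 sites called in every list and 38.6% of the 51515 distal sites inside genes. Since presence in every list was the selection, that presence is a description and was not tested.

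ATAC-seq was carried out on primary mouse embryonic fibroblasts (MEFs) from WT and Anp32e null embryos, kept below passage 8. WT MEFs gave 3 libraries. Anp32e null MEFs gave 3 libraries. Anp32e null MEFs transfected with non-targeting (NT) siRNA gave 1 library, and Anp32e null MEFs transfected with a pool of 4 H2A.Z siRNAs gave 2, so both siRNA groups also lacked Anp32e and no siRNA was given to WT cells. The authors merged the libraries of a group before calling peaks, so each group was 1 list with no replicate check, and no significance test was made between lists.

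Open chromatin is found in ATAC-seq because the Tn5 transposase inserts sequencing adapters where DNA is not covered by nucleosomes. Away from TSSs such sites are mostly enhancers and insulators, many of them in introns, where sequence-specific factors bind. In fibroblasts the factors known for this are AP-1 (dimers of Fos and Jun proteins), the TEAD factors of the Hippo pathway and RUNX factors, whereas CTCF marks insulators and the anchors of chromatin loops. H2A.Z is a variant of histone H2A that occurs at promoters and enhancers, and ANP32E is a chaperone that removes it from nucleosomes.

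To show what these sites look like, 4 sequences are given first, each the site of highest level for 1 of the AP-1, TEAD, RUNX and CTCF motifs among windows wholly within introns. All are 200 bases around the summit, are read on the plus strand of GRCm38 from RefSeq and are printed 5′ to 3′, with capitals at every match to those 4 motifs on either strand. The first, in Rabgap1l (chr1:160531540-160531739), held 1 AP-1 match. The window in Fer, a tyrosine kinase gene (chr17:64003532-64003731), held 1 TEAD match. It was taken in place of a site in Jarid2 that has a near-copy elsewhere in the genome, a choice made after the values were seen. The window in Itpr2, which encodes a calcium release channel (chr6:146185643-146185842), held 2 RUNX and 2 AP-1 matches, and the window in Zfp286, a zinc finger gene (chr11:62756878-62757077), held the CTCF core. Summit pileups of the Zfp286 site were 259 fragments in WT, 184 in Anp32e null, 452 with NT siRNA and 1201 with H2A.Z siRNA, and those of the other 3 are given below.
Rabgap1l: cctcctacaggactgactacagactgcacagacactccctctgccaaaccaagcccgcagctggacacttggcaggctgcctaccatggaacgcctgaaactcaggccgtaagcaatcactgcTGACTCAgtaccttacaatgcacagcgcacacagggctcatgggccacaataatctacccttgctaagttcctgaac
Fer: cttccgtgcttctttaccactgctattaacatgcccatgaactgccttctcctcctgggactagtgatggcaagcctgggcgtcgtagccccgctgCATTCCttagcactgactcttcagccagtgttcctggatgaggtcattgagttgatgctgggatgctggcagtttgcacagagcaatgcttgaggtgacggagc
Itpr2: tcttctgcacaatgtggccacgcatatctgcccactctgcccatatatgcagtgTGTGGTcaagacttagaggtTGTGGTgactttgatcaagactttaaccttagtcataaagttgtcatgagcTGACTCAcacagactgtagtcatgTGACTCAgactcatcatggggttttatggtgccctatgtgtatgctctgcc
Zfp286: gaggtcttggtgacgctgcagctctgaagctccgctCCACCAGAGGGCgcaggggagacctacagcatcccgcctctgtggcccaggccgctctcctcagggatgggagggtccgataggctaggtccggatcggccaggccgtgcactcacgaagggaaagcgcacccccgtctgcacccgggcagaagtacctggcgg

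The other 4 sequences come from sites that stood at the ends of the comparisons between lists described further on. In Cadm1, a cell adhesion gene (chr9:47589869-47590068), the site with the largest gain in Anp32e null over WT held 2 AP-1 matches. In Slc44a1, a choline transporter gene (chr4:53527841-53528040), a site with a large loss in the same comparison held 1 RUNX match. In Dixdc1 (chr9:50733021-50733220) the site with the largest gain in H2A.Z siRNA over NT siRNA held 1 AP-1 match. In Samd12 (chr15:53552338-53552537) the site with the largest loss there held 1 RUNX match near its end. A match is a description of letters and not evidence of binding.
Cadm1: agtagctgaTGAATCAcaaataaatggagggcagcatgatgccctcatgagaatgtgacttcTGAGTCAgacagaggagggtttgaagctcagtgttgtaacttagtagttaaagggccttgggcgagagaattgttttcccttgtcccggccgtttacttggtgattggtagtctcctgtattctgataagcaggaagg
Slc44a1: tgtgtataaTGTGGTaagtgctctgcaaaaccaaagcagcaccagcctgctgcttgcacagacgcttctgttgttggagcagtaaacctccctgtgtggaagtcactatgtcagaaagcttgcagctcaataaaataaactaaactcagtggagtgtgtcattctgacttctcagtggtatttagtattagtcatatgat
Dixdc1: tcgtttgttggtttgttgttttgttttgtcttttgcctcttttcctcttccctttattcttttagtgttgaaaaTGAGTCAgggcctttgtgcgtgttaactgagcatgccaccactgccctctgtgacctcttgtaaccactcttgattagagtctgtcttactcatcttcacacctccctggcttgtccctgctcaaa
Samd12: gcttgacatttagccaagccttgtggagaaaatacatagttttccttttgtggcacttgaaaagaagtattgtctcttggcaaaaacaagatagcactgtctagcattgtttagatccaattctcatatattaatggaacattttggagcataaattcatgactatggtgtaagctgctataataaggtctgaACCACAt

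The sites were of moderate width. They ranged from 267 to 3630 bp with a median of 851 bp and covered 18.1 Mb in all. In 18890 of them (94.9%) each list had exactly 1 peak. They took up 24.8% of the WT peaks on chromosomes 1 to 19, 25.4% of the Anp32e null peaks, 23.6% of the NT siRNA peaks and 18.9% of the H2A.Z siRNA peaks. The 4 lists held 81848, 80433, 87116 and 105816 such peaks, and their genome-wide backgrounds, which scale with depth, were 8.85, 5.12, 3.88 and 17.8 fragments. As a check on the cells, 13 of 14 fibroblast markers had a peak at a TSS in every list, while Lum lacked one in each list. Peaks at TSSs also stood at 3 of 8 epithelial, 4 of 6 endothelial, 2 of 7 blood, 5 of 7 neural, 3 of 7 muscle and 2 of 6 pluripotent markers in every list, and how far other cells contributed to these sites was not tested.

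Level was taken as the percentile of a peak's fold enrichment within its own list, which needs no scaling between lists. By this measure the sites were of middle to high level and below promoters. Their median percentile was 57.4 in WT, 57.6 in Anp32e null, 59.6 with NT siRNA and 67.4 with H2A.Z siRNA. Promoter sites called in every list stood at 79.4, 77.2, 76.7 and 79.6, and intergenic distal sites called in every list at 59.1, 60.2, 62.6 and 69.7. The distal sites inside genes were therefore close to intergenic ones in each list and well under promoters.

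**Figure D1:**
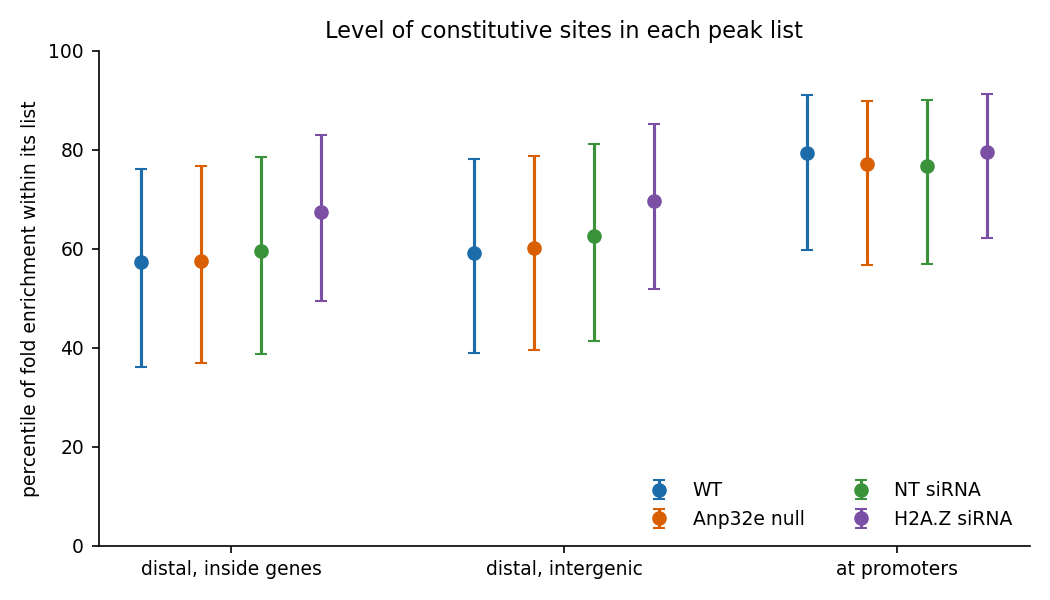
The vertical axis gives the percentile of fold enrichment within each peak list, for constitutive sites that are distal inside genes, distal intergenic or at promoters. Points are medians over sites and bars run from the lower to the upper quartile of sites, so they show spread over sites and not replicate error; sites inside genes have medians from 57.4 to 67.4 and promoters from 76.7 to 79.6.

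The mean percentile over the 4 lists, used below as the level of a site, had a median of 59.1, with quartiles at 42.1 and 76.2. A level of 90 or more was reached by 1570 sites (7.89%), against 24.6% of promoters and 9.64% of intergenic sites. The highest and lowest of the 4 percentiles of a site lay 22.9 apart in the median, 22.5 apart at intergenic sites and 11.3 apart at promoters. The distal classes stood highest in H2A.Z siRNA, the list with most peaks, and promoters did so only slightly. In fragments piled up at the summit, the medians were 56 in WT, 49 in Anp32e null, 67 with NT siRNA and 267 with H2A.Z siRNA. Those counts carry the depth of each list, and over its own background they came to 6.33, 9.58, 17.3 and 15.

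Pairs of lists ranked the sites alike to different degrees. Spearman's rho of fold over the 19904 sites was 0.885 for the siRNA lists, 0.828 for WT and Anp32e null, and 0.631 for WT and NT siRNA, the lowest pair. At promoters the same pairs gave 0.953, 0.948 and 0.836. Summits of the same site lay 18 bp apart in the median between the siRNA lists and 39 bp apart between WT and Anp32e null. These values are descriptions over sites of 4 libraries or pools, and sites are not independent replicates.

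Level differed with the number of lists that called a distal site inside a gene, as a call itself needs enrichment. The median level over the lists that called a site was 14 for the 15665 sites called in 1 list, 25.2 for the 9274 called in 2, 32.3 for the 6672 called in 3 and 59.1 for those called in all 4. Median widths were 338, 498, 605 and 851 bp in the same order, and a merged site joins the peaks of its lists, so its width grows with their number. Of the sites called in 3 lists, the missing list was WT for 3095 (46.4%), Anp32e null for 1816 (27.2%), NT siRNA for 1491 (22.3%) and H2A.Z siRNA for 270 (4.05%). H2A.Z siRNA was the list with most peaks and the highest background. At the edge set by the TSS distance, 938 sites between 500 and 1000 bp from a TSS, just outside the rule, had a median level of 52.4, and 884 sites between 1000 and 1500 bp, just inside it, had 51.3.

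Nearly all of the sites were intronic, as most gene sequence is. An intron held the midpoint of 18391 sites, or 92.4% (95% Wilson interval 92 to 92.8%; 88.5 to 94.8% over the 19 autosomes), and 92.2% of 4451082 tiled 200-bp windows of gene bodies outside the TSS zones were intronic as well. Coding exons held 512 sites (2.57%, tiles 2.65%), untranslated regions (UTRs) 660 (3.32%, tiles 3.37%) and other exons 341 (1.71%, tiles 1.76%). The shares of sites and of gene sequence thus lay close together. Levels were 59.6 in introns, 56.6 in other exons, 52.1 in coding exons and 50.7 in UTRs.

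Within introns the sites leaned towards the start of the gene. Of the 19349 sites in a single gene, 25.6% (25 to 26.2%; 20.3 to 32.7% over autosomes) lay in the first intron of the longest coding transcript, against 21.3% of tiles, which is 1.2 times as many. The second intron held 14.3% (tiles 13.2%) and later introns 46.3% (tiles 50.9%). By distance from the nearest TSS, 4.77% lay within 2 kb, 19.7% from 2 to 5 kb, 22.7% from 5 to 10 kb, 43.3% from 10 to 50 kb and 9.44% beyond 50 kb. Level rose over these classes, from 49.2 to 55.1, 59.4, 60.5 and 64.1.

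The sites were poor in repeats. Soft-masked bases, which mark repeats and low-complexity sequence in the reference, made up 9.71% of their 200-bp summit windows, 27.9% of tiles, 4.61% of promoter windows and 10.7% of intergenic ones. A window with at least 50% of its bases masked was found for 2.83% of the sites and 20.8% of tiles. A second copy elsewhere in the genome, of 100 bp or more at 90% identity or more, was found for 324 sites (1.63%), and the share in quartiles of level ran from 1.45 to 1.85%. The mitochondrial genome held a copy of 0 sites. Of the 20 sites of highest level, 3 had such a second copy (15%).

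Those 3 stood at the very top of the order of levels and had narrow peaks of nearly the same width in each list. The site in Gphn, which encodes a scaffold protein of inhibitory synapses, lay in the second intron (chr12:78350869-78351176) and had 469 fragments in WT, 272 in Anp32e null, 641 with NT siRNA and 2072 with H2A.Z siRNA, with widths of 301, 300, 307 and 308 bp. A copy of 174 bp at 97.7% identity was on chromosome 16. The site in a UTR of Lars2, the mitochondrial leucyl-tRNA synthetase gene (chr9:123461790-123462193), had 1457, 972, 2481 and 7765 fragments and a copy of 196 bp at 94.9% identity on chromosome 19. The site in Jarid2, a gene of a Polycomb cofactor (chr13:44869565-44870023), had 353, 244, 613 and 2403 fragments and a copy of 147 bp at 95.2% identity on chromosome 10. In every list the Lars2 site had more fragments than the other two, and whether reads of a second copy add to these pileups was not tested.

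The other 5 of the 8 highest sites had no such copy. The Rabgap1l site had 191 fragments in WT, 199 in Anp32e null, 366 with NT siRNA and 1277 with H2A.Z siRNA, and the Fer site had 263, 301, 433 and 1325. A site in Cftr, the chloride channel gene mutated in cystic fibrosis, lay in an exon of a noncoding transcript (chr6:18270965-18271623) and had 244, 238, 311 and 1017. The Itpr2 site had 230, 227, 397 and 1434, and an intronic site in Herc6, a ubiquitin ligase gene (chr6:57641594-57642180), had 161, 238, 313 and 850. After scaling for depth, the largest difference among these 5 between WT and Anp32e null was that of Herc6, 0.76 on the log2 scale.

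The sequences of the sites held far more AP-1 words than gene sequence at large. The AP-1 word TGANTCA occurred on either strand of the 200-bp summit window in 8103 sites, or 40.7% (40 to 41.4%; 38.9 to 43.2% over autosomes), and in 5.95% of tiles, a ratio of 6.84. Among other constitutive sites it occurred in 40.5% of intergenic ones and 6.9% of promoters, and among distal sites inside genes that missed at least 1 list in 27.1%. The TEAD word GGAATG occurred in 24.5% of sites and 10.5% of tiles, and the RUNX word TGTGGT in 23.4% and 14.5%. The CTCF core was rarer, in 4.19% of sites, but occurred in only 0.105% of tiles, a ratio of 39.9. At least 1 of these 4 motifs was found in 70.3% of the sites.

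Words of promoter factors, apart from NF-Y, were much less frequent than at promoters. The SP1 word GGGCGG occurred in 4.88% of sites, 1.98% of tiles and 47.3% of promoters. The ETS word CCGGAA occurred in 2.48%, 1.53% and 18.1%, and the NF-Y word CCAAT in 23.3%, 26.4% and 25.2%. The words of the mesenchymal factor TWIST (CAGATG) and of FOX factors (TGTTTAC) occurred in 18.5% and 3.21% of sites against 15.1% and 3.02% of tiles. The remaining words were rare: 1.71% of sites held a CArG box, 0.919% the CEBP word TTNCGNAA, 0.914% a MEF2 word, 0.322% the CRE word TGACGTCA and 0.0402% the NFI palindrome. An ETS and a TEAD word can share bases, so the shares do not add up. GC content had a median of 48% at the sites, 42.5% in tiles and 64.5% at promoters.

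AP-1 and CTCF marked different sites. A CTCF core was found in 0.629% of the sites with an AP-1 word and in 6.63% of those without. By quartile of level, from the lowest to the highest, AP-1 occurred in 31.1, 36.6, 42 and 53.1% of sites, and in 59.1% of those at level 90 or more. The CTCF core occurred in 3.86, 5.89, 5.08 and 1.91%, and in 1.08% at level 90 or more. AP-1 thus rose with level, while CTCF was most frequent in the middle quartiles.

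Matches stood close to the summits. In 20-bp bins, AP-1 peaked at 8.17% of sites 30 bp from the summit, dropped to 4.64 and 4.67% in the bins at the summit itself, and was 0.61% at 400 to 500 bp. The CTCF core reached 1.54% at 30 bp on one side and 1.34% at 30 bp on the other, with 0.0251 and 0.01% in the bins at the summit. TEAD words peaked at 3.41% and RUNX words at 3.3%, with no such dip.

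**Figure D2:**
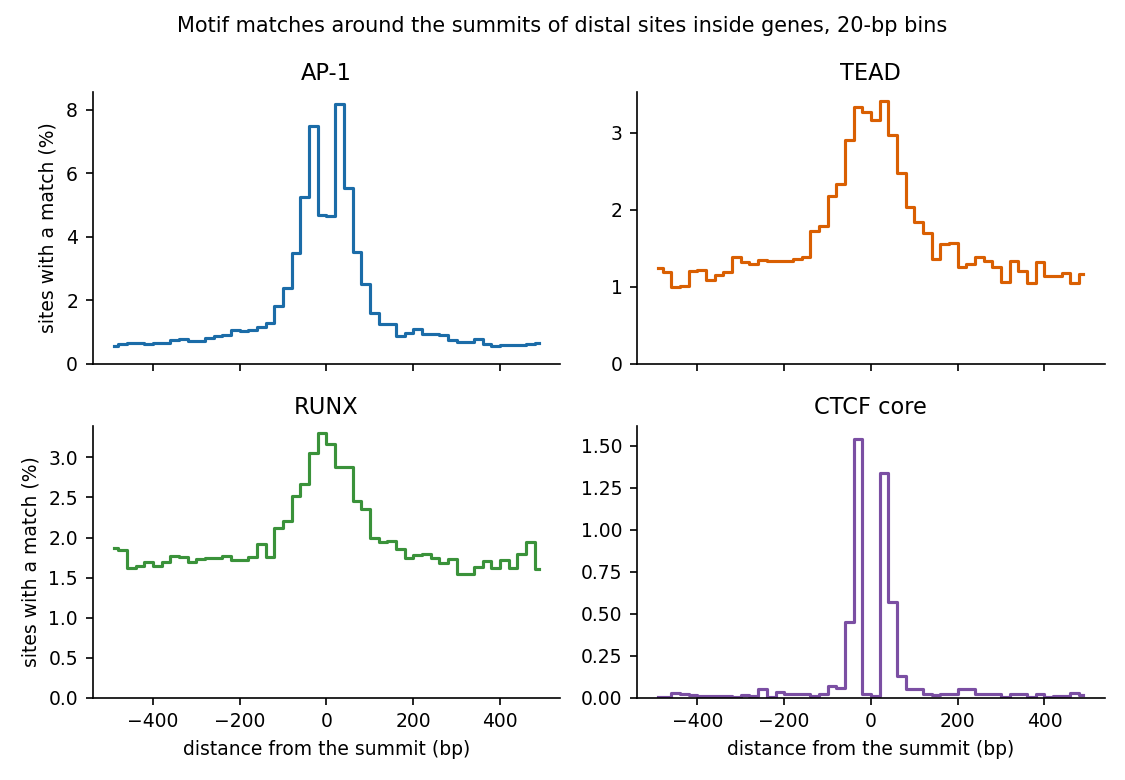
Each panel gives, for 1 motif, the percentage of the 19904 constitutive distal sites inside genes with a match in each 20-bp bin (vertical axis, on a scale of its own per panel) against distance from the summit in bp (horizontal axis). AP-1 reaches 8.17% and the CTCF core 1.54% at about 30 bp from the summit, both with a dip at the summit itself.

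The sites were spread over many genes. Of 20807 protein-coding genes on chromosomes 1 to 19, 6693 (32.2%) held at least 1, 3093 held exactly 1, 1179 held 5 or more, 392 held 10 or more and 64 held 20 or more. The 392 genes with 10 or more held 29.6% of all sites. Longer genes were more likely to hold one: 4.68% of genes under 10 kb, 25.2% of those from 10 to 30 kb, 57% from 30 to 100 kb, 82.6% from 100 to 300 kb and 83.5% from 300 kb. Per length the order was not the same, with 1, 1.73, 2.24, 2.64 and 1.42 sites per 100 kb of gene body, against 2.01 over all genes. The longest genes were therefore the most often hit and were not the most densely hit.

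The genes with most sites were very long gene models, and some of those span other genes. The predicted gene Gm20388 held 161 sites over 4434.9 kb but overlapped 73 other protein-coding genes, and 74 of its sites also lay in another gene. The annotated Fgfr2 model, of a fibroblast growth factor receptor, held 85 over 2960.9 kb, of which 52 lay in another gene too. Models with no site in another gene included Pde4d, a cAMP phosphodiesterase, with 47 sites over 1503.5 kb, Nav2 with 31 over 701.4 kb and Ptprm, a receptor phosphatase of cell contacts, with 29 over 687.5 kb. The same held for Macrod2, with 40 over 1997.7 kb, and for Mast4 and Rbfox1, with 28 each. Syn3 held 33 over 443.8 kb, Gm37240 and Gm42906 29 each and Camta1 28, and each of these shared sites with another gene.

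Among genes with at least 5 sites, the densest were far shorter than the genes with most sites. Camkk1, a calcium-dependent kinase gene, held 5 sites, or 21.7 per 100 kb. Rps14, a ribosomal protein gene, held 6 (19.1 per 100 kb), H13 6 (15.3), Tbc1d2 7 (15.3), Gipc2 11 (15.1), Creb3l1 6 (14.2), Tnxb, a matrix protein gene, 7 (14.2) and Zcchc24 8 (13.9). These densities use the whole annotated gene model, and sites shared with another gene were not removed from them. Sites also gathered in runs with gaps of at most 10 kb. There were 9803 single sites (49.3%), 3712 runs of 2 to 4, 220 runs of 5 to 9 and 7 runs of 10 or more. In Ahnak, 10 sites stood within 39.8 kb.

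The density of the sites differed between the gene lists, which were not tested against other genes. Against 2.01 per 100 kb over all genes, there were 5.24 in contractile and adhesion genes (110 sites in 20 of 28 genes), 5.22 in Hippo pathway genes (82 in 15 of 18), 4.71 in genes of AP-1 and related factors (25 in 4 of 13), 4.59 in TGF-beta pathway genes (121 in 25 of 29), 3.43 in matrix genes (74 in 20 of 29) and 3.36 in genes of skeletal and mesenchymal factors (155 in 20 of 27). Genes of the machinery that places or removes H2A.Z had 2 per 100 kb (11 sites in 7 of 16), and long neuronal genes 0.638 (166 in 16 of 20), beside 1.42 over all genes of 300 kb or more. Among the markers of cell types, 7 of 14 fibroblast markers held 16 sites, 4 of 7 neural markers 16 and 5 of 6 endothelial markers 12. For blood 3 of 7 markers held 4 sites, and for muscle 2 of 7 held 6. For epithelium 1 of 8 held 5, and for pluripotent cells 1 of 6 held 1. Of all protein-coding genes 32.2% held a site, and the marker sets were not matched for gene length. The targeted genes, Anp32e (18.1 kb), H2afz (2.44 kb) and H2afv (17.2 kb), held 0. Genes of such length seldom held a site: 4.68% of those under 10 kb and 25.2% of those from 10 to 30 kb did.

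The genes with most sites in each list were long genes of known roles. In the contractile list these included Lpp (27 sites), Cald1 (13) and Myh9 (8), which encode a focal adhesion protein, caldesmon and nonmuscle myosin heavy chain. In the TGF-beta list they included Ltbp1 (27), which tethers the latent ligand to the matrix, the receptor genes Tgfbr3 (12) and Acvr1 (8), and the signal transducer Smad3 (12). The Hippo list was led by Vgll4 (13), Ptpn14 (12), the DNA-binding factor Tead1 (12) and Amotl1 (9), and the matrix list by Col4a2 (12), Fbn1 (12), Col4a1 (7) and Col12a1, Fbln1, Fbln5 and Fbn2 (5 each). Nfib (24), Runx2 (15) and Tcf4 (15) were among the leading transcription factors, and Bach2 held 20 of the 25 sites of the AP-1 list. Fos, Jun, Junb and Fosl2 held 0, but they are 3.38, 3.19, 4.24 and 22 kb long. Of all genes under 10 kb only 4.68% held a site, and of those from 10 to 30 kb 25.2%. In the neuronal list Macrod2 (40), Rbfox1 (28), Dlg2 (26) and Ctnna3 (22) led. That list is named for its theme, and expression of its genes was not analysed.

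The comparison of Anp32e null with WT addressed what loss of the chaperone does to accessibility. Change was the log2 ratio of summit pileup over the genome-wide background of its list, centred on the median of all sites called in both lists, so it measures a site relative to other sites and cannot show a shift shared by all. On this scale the sites changed little as a class: the median was 0.013, with an SD over sites of 0.47. Of the 19904 sites, 312 (1.57%) were at least 2-fold higher in Anp32e null and 453 (2.28%) at least 2-fold lower. Over all 64502 sites called in both lists these shares were 1.14% and 2.6%, so the sites were close to the background. Without centring, 3582 were higher and 32 lower, and on the authors' fold 235 and 89. The medians were 0.05 for promoters and 0.027 for intergenic sites, but on the scale of the authors' fold promoters were the lower class, with -0.056 against 0.05 for sites inside genes and 0.048 for intergenic sites. Before centring, the median of all sites called in both lists was 0.591 higher in Anp32e null.

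At single sites the difference could be large. The site in the first intron of Cadm1 (chr9:47589453-47590526) had 28 fragments in WT, 146 in Anp32e null, 179 with NT siRNA and 810 with H2A.Z siRNA, and its log2 ratio of Anp32e null to WT was 2.58 (95% Clopper-Pearson interval 1.99 to 3.22). In Zmat4 (chr8:23740315-23741420) the pileups were 31, 153, 121 and 545, a log2 ratio of 2.50 (1.94 to 3.11), and in St8sia1, a ganglioside synthase gene (chr6:142867395-142868051), they were 29, 121, 101 and 466, a log2 ratio of 2.26 (1.67 to 2.90). In all 3 the WT list was the low one. The intervals cover counting error alone, and fragments are not replicates.

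Sites at the other end were high in WT. A coding exon of Zfp697 (chr3:98427212-98428453) had 287 fragments in WT, 47 in Anp32e null, 54 with NT siRNA and 191 with H2A.Z siRNA, a log2 ratio of -2.41 (-2.89 to -1.96). The site in Slc44a1 (chr4:53527671-53528441) had 134, 23, 33 and 93, a log2 ratio of -2.34 (-3.05 to -1.70), and a site in Wdfy3, an autophagy gene (chr5:102045244-102046421), had 75, 15, 15 and 61, a log2 ratio of -2.12 (-3.03 to -1.31). These 6 sites were ranked by this ratio to be named. On the centred scale, the siRNA lists also lay nearer to Anp32e null than to WT at all 6.

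Change from WT to Anp32e null varied with chromosome and with level. Over the 19 autosomes the median ratio of the sites ran from -0.18 on chromosome 14 to 0.25 on chromosome 18, with -0.18 on chromosomes 9 and 11 and 0.23, 0.21 and 0.2 on chromosomes 17, 16 and 10. Promoters on the same chromosomes followed nearly the same order (Pearson's r of the medians 0.992, n = 19 chromosomes), as did intergenic sites (r 0.976). The r values are descriptions, since all points come from the same pair of lists. By quartile of level the medians were -0.13, -0.048, 0.055 and 0.14, from the lowest to the highest. The ratio of a single site holds this chromosome-wide part: centred on its own chromosome, the Cadm1 site stood at 2.76, the Zmat4 site at 2.64 and the Slc44a1 site at -2.27. The cause of this pattern was not tested.

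**Figure D3:**
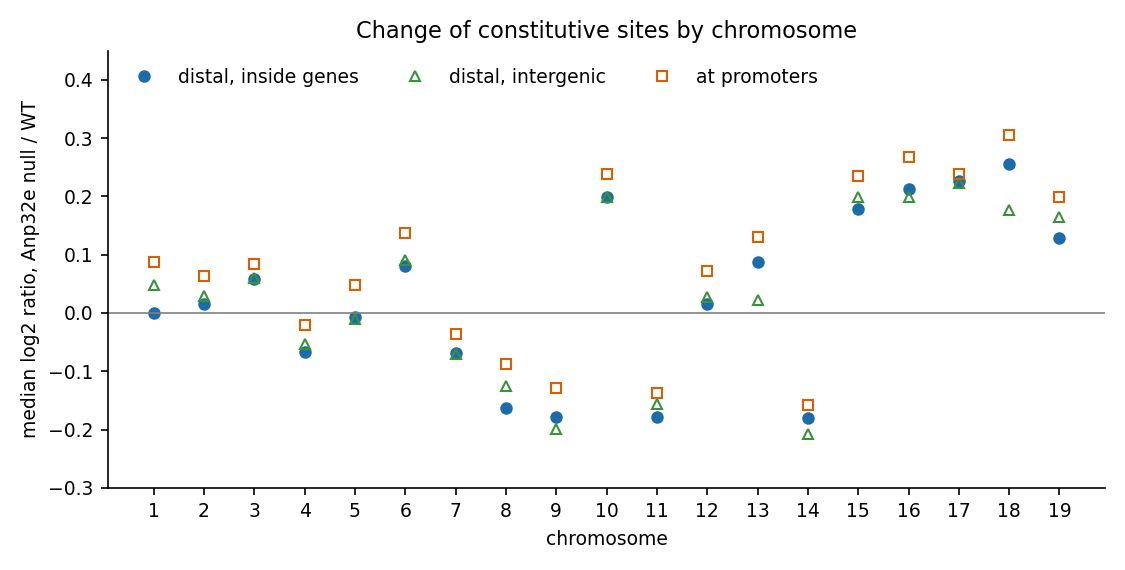
The horizontal axis lists chromosomes 1 to 19 and the vertical axis gives the median log2 ratio of Anp32e null to WT, relative to all sites, for constitutive sites inside genes (filled circles), intergenic sites (triangles) and promoters (squares). The 3 kinds of site move together, and sites inside genes run from -0.18 on chromosome 14 to 0.25 on chromosome 18.

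The comparison of H2A.Z siRNA with NT siRNA asked what lowering H2A.Z changes in cells without Anp32e. The sites again changed little as a class, with a median of 0.046 and an SD over sites of 0.45. At least 2-fold higher in H2A.Z siRNA were 348 sites (1.75%) and at least 2-fold lower 332 (1.67%), against 1.41% and 1.67% of all 79699 sites called in both lists. Without centring, 91 were higher and 948 lower, and on the authors' fold 180 and 134. Promoters had a median of -0.034 and intergenic sites of 0.053. The place of 0 is set by the centring: without it, the medians were -0.23 for sites inside genes, -0.31 for promoters and -0.22 for intergenic sites, and centred on the 1000 strongest sites they were 0.195, 0.116 and 0.203. Under each of these the distal classes stood slightly above promoters.

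The NT siRNA list was low at the sites named for a gain. The Dixdc1 site (chr9:50732675-50733504), in a gene of the Wnt pathway, had 27 fragments in WT, 40 in Anp32e null, 21 with NT siRNA and 357 with H2A.Z siRNA, a log2 ratio of H2A.Z siRNA to NT siRNA of 2.16 (1.53 to 2.87). In Ehd3, an endosomal trafficking gene (chr17:73822003-73822931), the pileups were 68, 42, 17 and 251, a log2 ratio of 1.96 (1.25 to 2.76), and in Zfp827 (chr8:79059275-79060497) they were 52, 40, 30 and 430, a log2 ratio of 1.91 (1.38 to 2.50). The site in Samd12 (chr15:53552214-53552933) had 25, 32, 76 and 62, a log2 ratio of -2.22 (-2.73 to -1.72). The site in Agpat4, an acyltransferase gene (chr17:12199945-12200431), had 32, 38, 99 and 92, a log2 ratio of -2.03 (-2.46 to -1.61), and a site in Zfp521 had 31, 22, 91 and 82, a log2 ratio of -2.08.

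Sites with an AP-1 word ranked higher in H2A.Z siRNA than sites without one. The median ratio was 0.17 for the 8103 sites with the word and -0.047 for the rest, a difference of 0.21. The difference was above 0 on 19 of 19 autosomes (0.155 to 0.327), in each quartile of level (0.29, 0.24, 0.255 and 0.138) and within twentieths of GC content (0.2). It was 0.25 at intergenic sites and 0.15 at promoters. An AP-1 word was found in 60.1% (54.8 to 65.1%) of the sites at least 2-fold higher, in 40.9% of those within 2-fold and in 6.93% (4.66 to 10.2%) of those at least 2-fold lower. On the scale of the authors' fold enrichment, which uses the local background, the difference was 0.12. In NT siRNA against Anp32e null, which shares the NT siRNA list, sites with the word stood lower than the rest by a median difference of -0.082, above 0 on 2 of 19 autosomes and -0.037 within twentieths of GC content.

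The median of CTCF sites was lower than that of the rest. The 833 sites with a CTCF core had a median ratio of H2A.Z siRNA to NT siRNA of -0.11 against 0.055 without, a difference of -0.17 that was below 0 on 19 of 19 autosomes and -0.12 on the scale of the authors' fold. Sites with a CTCF core were scarce at both ends, in 0.287% of those at least 2-fold higher and 0.602% of those at least 2-fold lower, against 4.32% of those within 2-fold. TEAD and RUNX words made a difference of -0.015 and 0.0014. The rare MEF2 word, in 182 sites, had a difference of -0.17 as well, above 0 on 4 of 19 autosomes. A TEAD word was found in 17.2% (13.6 to 21.6%) of the sites at least 2-fold higher. It was found in 24.5% of those within 2-fold and in 28% (23.5 to 33.1%) of those at least 2-fold lower. These shares and medians have no replicate check, since each group was 1 list.

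**Figure D4:**
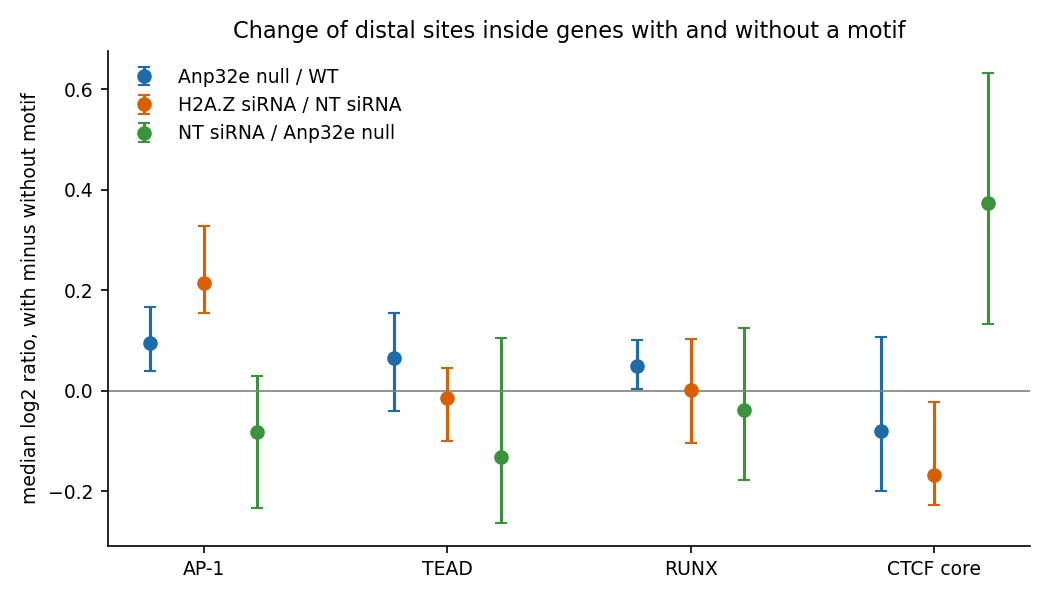
For each of 4 motifs (horizontal axis), the vertical axis gives the median log2 ratio of constitutive distal sites inside genes with a match minus that of sites without, in the 3 comparisons of lists, and bars span the lowest and highest of the 19 autosomes. The difference for AP-1 is 0.21 in H2A.Z siRNA against NT siRNA and that for the CTCF core is 0.37 in NT siRNA against Anp32e null.

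In Anp32e null against WT the differences for AP-1 and CTCF were smaller than in H2A.Z siRNA against NT siRNA. Sites with an AP-1 word had a median of 0.073 against -0.023 without, a difference of 0.096 that was above 0 on 19 of 19 autosomes, from 0.05 to 0.064 within quartiles of level and 0.028 on the scale of the authors' fold. TEAD and RUNX words went with differences of 0.065 (18 of 19 autosomes) and 0.05 (19 of 19), and within quartiles of level TEAD gave 0.078, 0.014, 0.066 and 0.011. On the scale of the authors' fold TEAD and RUNX came to 0.01 and 0.015. The CTCF core had a difference of -0.081, but 0.1 on the scale of the authors' fold, so its direction depended on the background used.

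NT siRNA and Anp32e null share a genotype and differ by transfection and by the set of libraries, and these cannot be told apart. This was nevertheless the comparison with the largest spread, an SD over sites of 0.74 and a median of -0.06. At least 2-fold higher in NT siRNA were 1691 sites (8.5%) and at least 2-fold lower 1992 (10%), against 9.97% and 8.35% of the 65523 sites called in both lists. Without centring, 7725 were higher and 111 lower, and on the authors' fold 694 and 365. Promoters had a median of 0.26, with 15.5% higher and 3.68% lower, and intergenic sites of -0.082. The shares of distal sites inside genes were near the background in both directions. On the scale of the authors' fold, which uses the local background, the order of promoters and sites inside genes turned, with medians of -0.009 for sites inside genes, -0.039 for promoters and 0.013 for intergenic sites. The comparisons share lists: the 138 sites that were higher in H2A.Z siRNA than NT siRNA, lower in NT siRNA than Anp32e null and within 2-fold between Anp32e null and WT share the NT siRNA value.

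The sites with the largest ratios showed the spread. In Traf4 (chr11:78158930-78159651) a site with a CTCF core had 47 fragments in WT, 23 in Anp32e null, 176 with NT siRNA and 610 with H2A.Z siRNA, a log2 ratio of NT siRNA to Anp32e null of 2.49 (1.86 to 3.18). Sites in Pola2, a DNA polymerase subunit gene (chr19:5956192-5957266), and in Rab40c (chr17:25893887-25894770) had 33, 30, 214 and 939 and 35, 20, 141 and 448, with log2 ratios of 2.39 and 2.37. The site in Gabrg3, which encodes a subunit of the GABA receptor (chr7:56736138-56736884), had 69, 75, 15 and 133, a log2 ratio of -2.77 (-3.68 to -1.96). Sites in Itpr1 (chr6:108340745-108341551) and Gm4756 (chr12:72585077-72585988) had 59, 78, 17 and 150 and 50, 70, 16 and 110, with log2 ratios of -2.65 and -2.58. At the first 3 the siRNA lists were both high for their depth, and at the other 3 both were low: on the centred log2 scale H2A.Z siRNA stood above NT siRNA by 1.22, 1.22 and 0.86, less than NT siRNA stood below Anp32e null.

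Change in this comparison varied with base composition and with distance from the TSS. By quartile of GC content, the medians were -0.26, -0.17, -0.032 and 0.22. The share at least 2-fold higher rose over the quartiles from 4.2 to 5.91, 8.08 and 15.8%, and the share at least 2-fold lower fell from 15.1 to 11.7, 8.52 and 4.72%. By distance the medians were 0.081 within 2 kb, 0.059 from 2 to 5 kb, -0.0043 from 5 to 10 kb, -0.098 from 10 to 50 kb and -0.31 beyond. Chromosomes 19 (0.25) and 11 (0.2) had the highest medians, and promoters there stood at 0.77 and 0.84. Sites with a CTCF core had a median of 0.3 against -0.076 without, a difference of 0.37 on 19 of 19 autosomes in the same direction, 0.27 within twentieths of GC content and 0.49 on the scale of the authors' fold. The difference for the SP1 word, 0.18, was 0 within twentieths of GC content.

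The gene lists separated in this comparison on the scale of the genome-wide background, where 8.5% of all the sites were at least 2-fold higher and 10% at least 2-fold lower. Contractile and adhesion genes had a median of 0.63, with 30 of 110 sites at least 2-fold higher and 1 lower, and 16 of their 20 genes had a median above 0. Long neuronal genes had -0.76, with 0 of 166 higher and 52 lower, and 0 of their 16 genes had a median above 0. TGF-beta genes had 0.36 (20 higher, 5 lower), Hippo genes 0.26 (5 and 6), matrix genes 0.23 (11 and 2), genes of H2A.Z machinery 0.2 (1 and 0), genes of skeletal and mesenchymal factors 0.11 (16 and 17) and AP-1 genes -0.0086 (1 and 2). Within twentieths of GC content the contractile list stood at 0.69 and the neuronal list at -0.58. The AP-1 list, with 25 sites in 4 genes, turned in sign to 0.21, and the other lists stayed above 0.

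On the scale of the authors' fold, which divides by the local background, the direction of 5 lists turned: the medians were -0.086 for contractile and adhesion, -0.084 for TGF-beta, -0.057 for Hippo, -0.022 for matrix and -0.031 for skeletal and mesenchymal genes. Long neuronal genes kept theirs, at -0.25, as did the AP-1 list at -0.146 and the list of H2A.Z machinery at 0.345. The positive medians of these 5 lists therefore held for fragments relative to the genome and not relative to their surroundings.

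**Figure D5:**
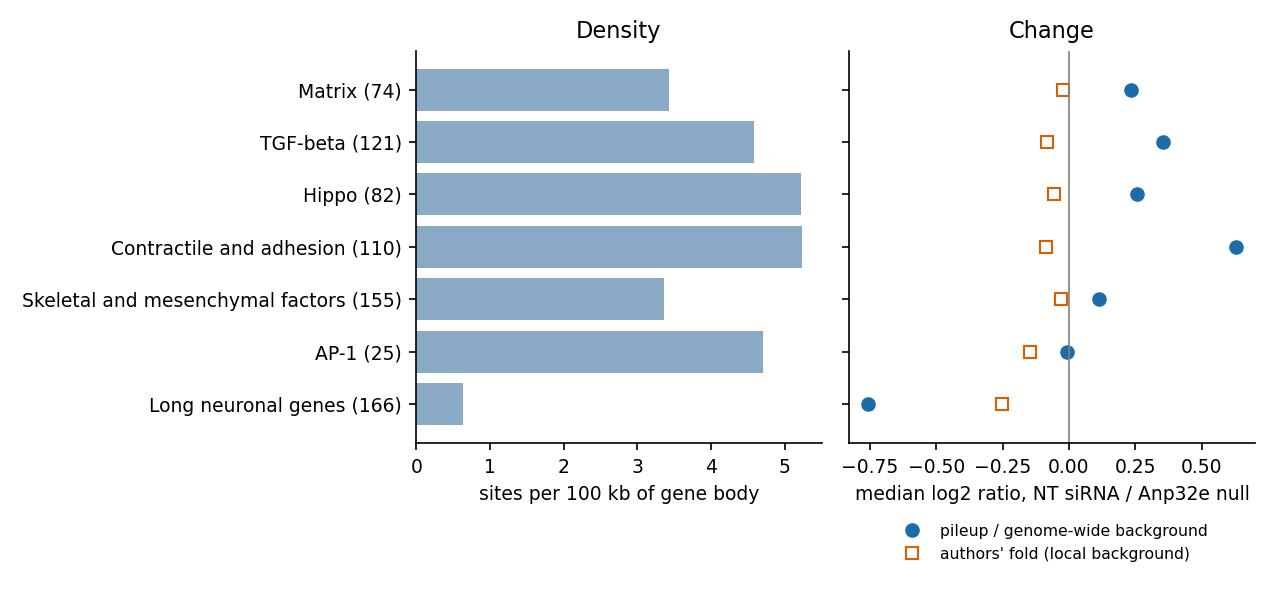
The left panel gives constitutive distal sites per 100 kb of gene body for each gene list with at least 20 sites (their number in parentheses), and the right panel gives the median log2 ratio of NT siRNA to Anp32e null of those sites on 2 scales, pileup over the genome-wide background and the authors' fold over the local background. Contractile and adhesion genes stand at 0.63 on the first scale and -0.086 on the second, and long neuronal genes at -0.76 and -0.25.

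Single genes of the lists showed how unlike their members were. On the genome-wide scale, the median of the 8 sites in Myh9 was 1.54, that of the 12 in Smad3 1.26, of the 12 in Tead1 0.79, of the 13 in Cald1 0.78, of the 12 in Col4a2 0.67, of the 15 in Runx2 0.63 and of the 27 in Lpp 0.6. The median of the 12 sites in Fbn1 was -0.078, of the 8 in Acvr1 -0.68 and of the 4 in Yap1, the Hippo coactivator gene, -0.96. In the list of long neuronal genes, the 40 sites in Macrod2 had a median of -0.72, the 28 in Rbfox1 -0.75, the 26 in Dlg2 -0.52 and the 22 in Ctnna3 -0.75. In Anp32e null against WT the neuronal list had a median of 0.2 and the contractile list of 0.082, and in H2A.Z siRNA against NT siRNA 0.1 and 0.11. Those medians lay closer together than in NT siRNA against Anp32e null. On the scale of the authors' fold, the contractile list stood at -0.038 in Anp32e null against WT, turned in sign. In H2A.Z siRNA against NT siRNA it stood at 0.0024. The neuronal list stood at 0.116 and 0.11 on that scale.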

How the data were processed

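ATAC-seq libraries of 9 samples in 4 groups were given by the labels. The authors used Bowtie2 for alignment to mm10 (GRCm38), Picard for removal of duplicates and MACS2 for peak calls on merged libraries, and deepTools is also named in the submitters' processing notes. Each deposited list gives per peak a fold enrichment (a ratio of pileup to local background, 1 added to both), a −log10 p-value, a score (10 times the −log10 q-value, cut to a whole number) and the summit; the 4 columns of q-values themselves, 1 per list, were not used. Fold and p-value were solved for the whole-fragment pileup and the background, and pileups came within 0.05 of a whole number for at least 99.995% of peaks in each list; this was tested on simulated data. The background of a list was its most frequent value.

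Peaks that overlapped or touched were merged on chromosomes 1 to 19 and annotated with GENCODE M21. Motifs were searched on both strands in 200-bp windows at the summit of the highest-ranked peak. Ratios carry 95% Clopper-Pearson intervals and shares 95% Wilson intervals, both for counting error only. Second copies were found with BLAST+ 2.17.0. The remaining work was done in Python 3.11.15 with pandas 2.3.3, NumPy 2.4.6, SciPy 1.17.1 and matplotlib 3.10.9. No list of artefact regions was applied.

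The sites and gene lists were chosen with earlier results of these data known. Named were the 8 sites of highest level, the 3 with the largest ratio per comparison and direction (1 peak per list, at least 50 fragments in the higher list), the 10 genes with most sites (12 with ties), the 8 densest with at least 5 and up to 4 per list (more on ties); Fos, Jun, Junb, Fosl2, Yap1 and Ahnak were chosen after their values were seen. Some genes that this rule names are not reported here. The alternatives tried are in the closing section.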

Additional observations from a re-analysis of the deposited data

How the results depend on the processing

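Of 307 values under alternatives, 248 stayed within the spread of their main value (for counts, within 1.5 times it), and signs turned under some centrings as given below. The number of sites was 16961 with peaks of −log10 q of 5 or more, 18596 with equal numbers of peaks per list and 22061 with the TSSs of protein-coding transcripts alone. The intronic share was 92.9% with that q minimum, 91.9% with a TSS zone of 500 bp and 90.2% with protein-coding TSSs, and the first-intron share 24.7% with the last. AP-1 was found in 42.7% (q minimum), 39.9% (protein-coding TSSs), 27.2% (windows of 100 bp) and 37.8% (WT summits), TEAD in 25.2% (q minimum) and 14.5% (100 bp), RUNX in 13.6% (100 bp) and the CTCF core in 3.38% (100 bp) and 3.47% (WT summits).

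Centring moved the changes most. For Anp32e null against WT the median was 0.604 without centring and -0.175 centred on the 1000 strongest sites (-0.037 on promoters), the latter 2 turned in sign, with 3582 and 122 sites at least 2-fold higher and 32 and 934 lower, and 89 lower on the authors' fold. For H2A.Z siRNA against NT siRNA it was -0.23 without centring, a reversal, 0.195 on the strongest and 0.0795 on promoters, with 91 and 689 higher (180 on the authors' fold) and 948 and 197 lower (134). For NT siRNA against Anp32e null it was 0.79, 0.15 and -0.32, the first 2 turned in sign, with 7725, 2692 and 843 higher (694 on the authors' fold) and 111, 1133 and 3523 lower (365). The contractile list stood at 1.48 and the neuronal list at 0.088 without centring, a reversal of the latter, and at -0.086, turned in sign, and -0.25 on the authors' fold. The AP-1 difference was 0.12 in H2A.Z siRNA against NT siRNA and 0.028 in Anp32e null against WT on that fold, and the CTCF difference -0.12. Centring by chromosome, motif differences and list medians were added after seeing the data. The cause of these shifts was not tested.

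No paired analysis was possible because the lists used here hold 1 pooled value per group. Values of single libraries were not analysed here, so no replicate was left out at this stage. The authors state that they excluded a replicate of the H2A.Z knockdown ATAC-seq because it was over-tagmented. Depth differed by list, with backgrounds from 3.88 to 17.8 fragments, and median pileups of 49 to 67 fragments in the 3 shallower lists limit the ratios of single sites.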
